A study of Homo sapiens with 35 samples.

Results

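The 7 genes described here encode the kinase module of Mediator: the paralogous kinases CDK8 and CDK19, their cyclin partner CCNC (cyclin C), and the large subunit pairs MED12 with MED12L and MED13 with MED13L. They were taken by name from the annotation of a whole-transcript gene array, which gave 7 of 18405 rows tested, 1 row for each gene. The row read as CDK8 is annotated to both CDK8 and ADRA1B, an adrenergic receptor gene, and is the only row of CDK8, while ADRA1B also has a row of its own. All cells were HCT116, an established human colorectal carcinoma line whose CTNNB1 gene carries an activating mutation. One line carried a hairpin against CDK8 (shCDK8), one a hairpin against CDK19 (shCDK19) and one a non-target hairpin (shControl). The 35 arrays formed 14 groups in 4 experiments, all starting from cells plated in McCoy's 5A with serum 24 h earlier. In normal growth, shCDK8, shCDK19 and shControl cells had 3 arrays each. After 12 h of 5-fluorouracil (5FU), a pyrimidine analogue that blocks thymidylate synthase, each line had 2 arrays, beside 2 arrays of shControl cells given the vehicle DMSO. After 24 h in low glucose DMEM each line had 3 arrays, beside 3 arrays of shControl cells in high glucose DMEM. After 24 h of hypoxia at 1% oxygen each line had 2 arrays, and no normoxic array of that experiment was analysed here. Knockdown cells in DMSO or in high glucose were not analysed here either.

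Mediator is a large complex that carries signals from DNA-bound transcription factors to the polymerase that makes messenger RNA. The kinase module attaches to it reversibly: MED13 or MED13L forms the link to the core, MED12 or MED12L activates the kinase through cyclin C, and either CDK8 or CDK19 supplies the catalytic activity. CDK8 is known as a colorectal cancer oncogene that acts in beta-catenin-driven transcription, and as a coactivator in the hypoxic, serum and p53 responses. The questions put to these rows were how deep each knockdown was, whether the paralog's transcript was higher where its partner was depleted, and how the 7 transcripts differed under each stress.

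Windows around the transcription start are shown for both hairpin targets, CDK8 and CDK19, and for MED12L and MED13L, the large subunits whose low glucose and hypoxia values are described further on. Of the 7 genes, 6 had a promoter entry in the RefSeq table (GRCh38.p14, 250 bases before to 50 after the start, each read along the gene's own strand). Capitals mark 3 short motifs on either strand. The first is ACGTG, a form of the core of the hypoxia response element that also lies within the E-box CACGTG. The others are the CCAAT box and the TATA box letters TATAAA. Other forms of that core were not searched.
CDK8 (chr13:26253879-26254178, plus strand): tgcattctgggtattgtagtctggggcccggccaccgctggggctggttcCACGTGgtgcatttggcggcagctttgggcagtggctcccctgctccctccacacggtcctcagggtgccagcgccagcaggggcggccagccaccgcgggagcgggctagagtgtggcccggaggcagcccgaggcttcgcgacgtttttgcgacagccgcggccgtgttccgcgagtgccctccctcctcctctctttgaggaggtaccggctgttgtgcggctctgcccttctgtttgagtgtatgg
CDK19 (chr6:110815806-110816105, minus strand, the first of 3 annotated starts): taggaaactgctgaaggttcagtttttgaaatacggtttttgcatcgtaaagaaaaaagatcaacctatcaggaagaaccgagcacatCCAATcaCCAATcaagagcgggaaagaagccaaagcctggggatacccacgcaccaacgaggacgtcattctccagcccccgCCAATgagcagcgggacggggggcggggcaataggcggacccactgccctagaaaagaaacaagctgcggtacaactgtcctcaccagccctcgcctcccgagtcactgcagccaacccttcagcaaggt
MED12L (chr3:151085414-151085713, plus strand): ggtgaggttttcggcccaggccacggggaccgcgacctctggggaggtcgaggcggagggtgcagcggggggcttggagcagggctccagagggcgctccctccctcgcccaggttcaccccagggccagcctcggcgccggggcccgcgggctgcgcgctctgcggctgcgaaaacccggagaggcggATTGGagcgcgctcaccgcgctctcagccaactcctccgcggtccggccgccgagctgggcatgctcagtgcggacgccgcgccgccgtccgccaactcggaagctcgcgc
MED13L (chr12:116277644-116277943, minus strand): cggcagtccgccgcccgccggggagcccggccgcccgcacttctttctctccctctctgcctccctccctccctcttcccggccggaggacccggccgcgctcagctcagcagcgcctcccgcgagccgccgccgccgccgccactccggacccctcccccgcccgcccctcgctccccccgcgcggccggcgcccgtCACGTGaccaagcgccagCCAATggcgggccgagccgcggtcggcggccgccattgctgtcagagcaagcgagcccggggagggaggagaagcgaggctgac

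The CDK8 and MED13L windows each held 1 CACGTG, which counts as 2 occurrences of ACGTG because it reads alike on both strands. The CDK19 window shown held 3 CCAAT and the MED12L window 1 CCAAT, neither with ACGTG, and the MED13L window held 1 CCAAT as well. The windows of the other CDK19 starts held no CCAAT and no ACGTG. Over 35116 RefSeq promoters of the same length, ACGTG was present in 21.4%, CACGTG in 7.26%, CCAAT in 34.6% and TATAAA in 11.5%. The MED12 window held 1 ACGTG, the first CCNC window 1 CCAAT, and none of the windows of these 6 genes held TATAAA. The matches are letters in these windows and were not tested against the expression values.

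Values are log2 signals as deposited, with a floor at 4.32 that held 8.48% to 9.97% of the rows of an array, and no kinase module row lay at the floor on any array. The epithelial markers EPCAM, KRT8, KRT18, KRT19 and CDH1 averaged 10.9 to 13.1 over the 35 arrays (92.2th to 99.7th percentile of genes). The 9 markers of other cell types averaged between 4.39 for PTPRC, near the floor, and 8.74 for COL1A1 (62.4th percentile), with the fibroblast markers COL1A2 and PDGFRB at 6.98 and 6.65, the leukocyte markers CD14 and CD3E at 6.65 and 6.11, and the endothelial markers PECAM1, CDH5 and VWF at 5.50, 6.39 and 6.05. All 9 except PTPRC lay above the floor on every array, so a signal above the floor does not by itself show expression. The MED12L row (6.93 to 7.98), CDK8 in shCDK8 cells (7.58 to 8.53) and CDK19 in shCDK19 cells (6.57 to 8.35) lay within the range of these marker means. Of the 9 marker means, only that of COL1A1 lay above 6.98. How much of these signals is background was not tested. The row with the highest mean of each other gene was tested, and changes were called at an adjusted p under 0.05 in limma, adjusted over all 18405 rows. Across rows, arrays of the same group had Pearson correlations of 0.976 to 0.998, and in 2 groups they agreed less than elsewhere. In shCDK8 cells in normal growth replicate 1 stood apart, with an r of 0.987 and 0.989 with replicates 2 and 3, against 0.997 between those. The 2 hypoxic shControl arrays gave the lowest r, 0.976, which cannot say which of them is the odd one. One hairpin line stands for each target, so the effect of depletion and other properties of a line cannot be told apart. The labels do not tie replicates to separate cultures, so p-values measure the spread between arrays, which may be technical, and in bulk RNA fewer cells and less RNA per cell cannot be told apart.

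The CDK8 transcript was low on every array of the shCDK8 line. The 10 shCDK8 arrays lay between 7.58 and 8.53 (median 8.14), against 9.79 to 10.95 (median 10.35) on the other 25 arrays, with no overlap. In normal growth it measured 7.58, 8.53 and 8.35 in shCDK8 cells, against 10.36, 10.22 and 10.23 in shControl cells. Replicate 1 of the shCDK8 line was the lowest of all 35 arrays for this row. Under 5FU it was 7.93 and 8.38 in shCDK8 cells, against 10.95 and 10.84 in shControl cells. In low glucose it was 8.21, 8.43 and 7.96 in shCDK8 cells, against 10.35, 10.21 and 10.43 in shControl cells. Under hypoxia it was 8.07 and 7.97 in shCDK8 cells, against 9.79 and 10.31 in shControl cells, without overlap.

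Relative to shControl cells, CDK8 fell in all 4 conditions. The log2 changes with their standard errors were -2.12 ± 0.23, adjusted p = 0.000438 in normal growth, -2.74 ± 0.15, adjusted p = 0.00157 under 5FU, -2.13 ± 0.11, adjusted p = 5.55e-07 in low glucose and -2.02 ± 0.19, adjusted p = 0.0112 under hypoxia. The signal that remained, with its 95% interval, was 23% (16% to 33.1%) of shControl in normal growth, 14.9% (11.4% to 19.5%) under 5FU, 22.8% (19.3% to 27.1%) in low glucose and 24.6% (17.6% to 34.4%) under hypoxia. These are shares of array signal, not of transcript molecules. The CDK8 mean of shCDK8 cells was 8.15 both in normal growth and under 5FU, while that of shControl cells was 10.27 and 10.90. The log2 change under 5FU lay below that in normal growth by an amount that did not pass the test (-0.62 ± 0.27, adjusted p = 0.166). Without replicate 1 of shCDK8 cells in normal growth it did pass (-0.91, adjusted p = 0.00479), and the normal growth change itself was -1.84, adjusted p = 5.47e-05. Against normal growth, the depth differed by -0.010 (95% interval -0.51 to 0.49) in low glucose and by 0.096 (95% interval -0.47 to 0.66) under hypoxia. The hypoxic call was lost without replicate 1 (-2.07, adjusted p = 0.143) or replicate 2 (-1.98, adjusted p = 0.139) of hypoxic shCDK8 cells, and without moderation of the variance (adjusted p = 0.0685). It was -2.28, adjusted p = 0.00831 without replicate 1 and -1.77, adjusted p = 0.0087 without replicate 2 of hypoxic shControl cells.

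**Figure D1:**
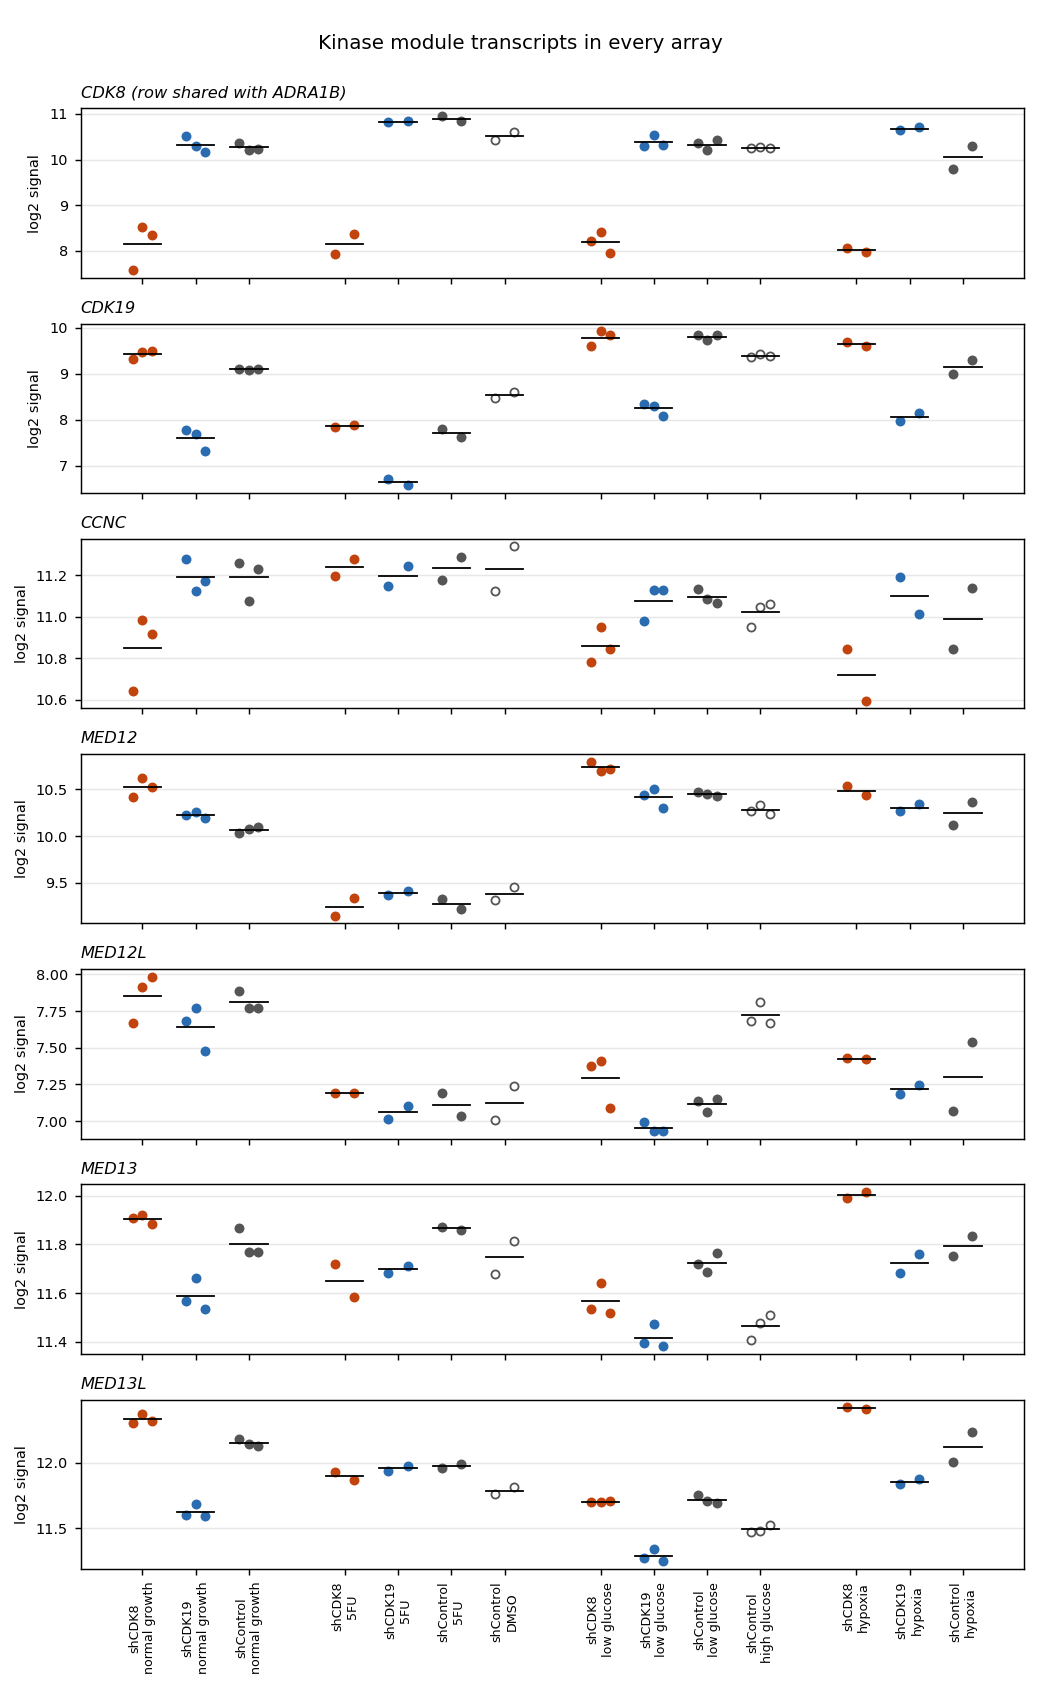
Log2 signal of the 7 kinase module rows (vertical axes, one panel per gene) on each of the 35 arrays, by group along the horizontal axis within each experiment. Points are arrays, bars are group means, orange is shCDK8, blue is shCDK19, grey is shControl, and open points are shControl in DMSO or high glucose; the 10 shCDK8 arrays sit at 7.58 to 8.53 in the CDK8 panel, below all others.

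CDK19, the second kinase of the module, was low in the shCDK19 line within every experiment. Its normal growth values were 7.78, 7.69 and 7.32 in shCDK19 cells, against 9.10, 9.09 and 9.11 in shControl cells. Under 5FU it was 6.70 and 6.57 in shCDK19 cells, against 7.80 and 7.63 in shControl cells. Within each of these experiments the shCDK19 arrays lay below all shControl arrays. In low glucose it was 8.35, 8.30 and 8.09 in shCDK19 cells, against 9.84, 9.73 and 9.84 in shControl cells. Under hypoxia it was 7.96 and 8.15 in shCDK19 cells, against 9.001 and 9.31 in shControl cells. Over all experiments the 10 shCDK19 arrays spanned 6.57 to 8.35 and overlapped the other 25, which reached down to 7.63, the lowest of them being a 5FU-treated shControl array.

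The signal of CDK19 that remained in the shCDK19 line was 35.3% (29.4% to 42.4%) of shControl in normal growth, 47.4% (40.7% to 55.2%) under 5FU, 33.9% (29.7% to 38.9%) in low glucose and 46.8% (36.3% to 60.2%) under hypoxia. The changes were -1.50 ± 0.11, adjusted p = 0.000343 in normal growth, -1.08 ± 0.088, adjusted p = 0.0131 under 5FU and -1.56 ± 0.087, adjusted p = 2.22e-06 in low glucose. Under hypoxia the change was of similar size to that under 5FU and did not pass the test (-1.10 ± 0.14, adjusted p = 0.0949). It did not pass in 7 of the 11 alternative settings either. With all 35 arrays in one limma fit it passed (adjusted p = 1.02e-06). It also passed with dim rows left out (adjusted p = 0.0417) and with quantile normalization (adjusted p = 0.0495). It passed without replicate 2 of hypoxic shControl cells (-0.94, adjusted p = 0.0317), and without replicate 1 it was -1.25, adjusted p = 0.0816. The call under 5FU was lost when any of its 4 arrays was left out, namely shCDK19 replicate 1 or 2 or shControl replicate 1 or 2, with changes between -1.16 and -0.99 and adjusted p between 0.111 and 0.164, and without moderation of the variance (adjusted p = 0.0813). The log2 change, the measure of depth here, was smaller in size than in normal growth by 0.43 ± 0.16 under 5FU (adjusted p = 0.184). Under hypoxia it was smaller by 0.41 ± 0.16 (adjusted p = 0.209), and neither difference passed. In shCDK19 cells the CDK19 mean was 7.60 in normal growth, 6.63 under 5FU and 8.06 under hypoxia. In shControl cells it was 9.10, 7.71 and 9.16 in the same order. In low glucose the depth differed from that in normal growth by -0.056 (95% interval -0.36 to 0.24).

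The 2 paralogs were next compared where their partner was depleted. CDK19 measured 9.32, 9.47 and 9.49 in shCDK8 cells in normal growth, all above the 3 shControl arrays (9.10, 9.09 and 9.11). Under hypoxia it was 9.68 and 9.60 in shCDK8 cells, against 9.001 and 9.31 in shControl cells, again without overlap. The differences were 0.33 ± 0.11, adjusted p = 0.0778 in normal growth and 0.49 ± 0.14, adjusted p = 0.113 under hypoxia, and neither passed the test. Under hypoxia the difference passed without replicate 2 of shControl cells (0.64, adjusted p = 0.0215), and it was 0.33, adjusted p = 0.159 without replicate 1. In low glucose CDK19 was 9.61, 9.93 and 9.84 in shCDK8 cells, against 9.84, 9.73 and 9.84 in shControl cells, which overlap (difference -0.014, 95% interval -0.21 to 0.18). Under 5FU it was 7.83 and 7.88 in shCDK8 cells, against 7.80 and 7.63 in shControl cells, without overlap and with a difference of 0.15 (95% interval -0.073 to 0.37). The difference in low glucose was -0.34 ± 0.14 relative to that in normal growth and did not pass either (adjusted p = 0.144). When all 35 arrays shared 1 estimate of the spread, the higher CDK19 of shCDK8 cells passed the test in normal growth (adjusted p = 0.0185) and under hypoxia (adjusted p = 0.00405).

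Conversely, CDK8 in shCDK19 cells overlapped shControl cells in every experiment except hypoxia. In normal growth it was 10.51, 10.30 and 10.17 in shCDK19 cells, against 10.36, 10.22 and 10.23 in shControl cells, a difference of 0.058 (95% interval -0.47 to 0.58). Under 5FU it was 10.82 and 10.85 in shCDK19 cells, against 10.95 and 10.84 in shControl cells, a difference of -0.066 (95% interval -0.45 to 0.32). In low glucose the difference was 0.063 (95% interval -0.18 to 0.31), with 10.30, 10.55 and 10.33 in shCDK19 cells, against 10.35, 10.21 and 10.43 in shControl cells. The arrays of both lines overlap there. Under hypoxia both shCDK19 arrays (10.64 and 10.72) lay above both shControl arrays (9.79 and 10.31), a difference of 0.63 ± 0.19, adjusted p = 0.279. It passed without replicate 2 of shControl cells (0.89, adjusted p = 0.0317) and was 0.38, adjusted p = 0.154 without replicate 1. When all 35 arrays shared 1 estimate of the spread, the hypoxic difference of CDK8 also passed the limma test (adjusted p = 0.0455). It stayed above the threshold in 9 of the 11 alternative settings. The intervals bound the differences and do not show that the paralog was unchanged.

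**Figure D2:**
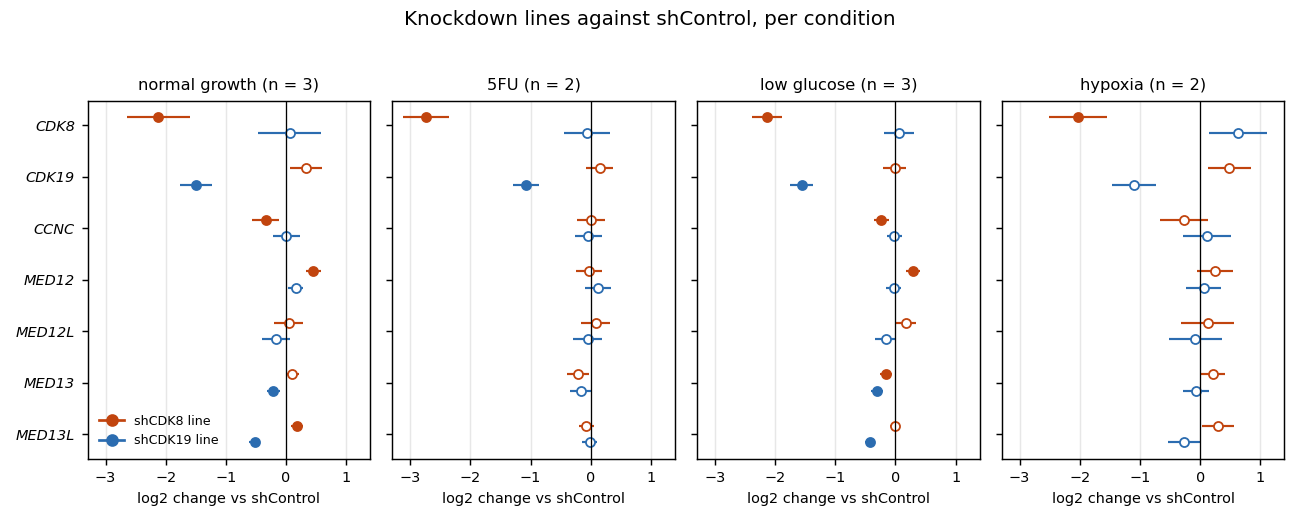
Change in log2 signal against shControl cells (horizontal axis) of the 7 kinase module rows (vertical axis) in shCDK8 (orange) and shCDK19 cells (blue), one panel per condition. Points are limma estimates with 95% intervals, filled where the adjusted p is under 0.05; CDK8 sits between -2.02 and -2.74 in the shCDK8 line, and MED13L is at -0.52 in normal growth and -0.43 in low glucose in the shCDK19 line.

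CCNC, the cyclin that both kinases need for activity, was lower in the shCDK8 line in the 2 experiments with 3 arrays a group. Normal growth gave 10.64, 10.99 and 10.92 in shCDK8 cells, against 11.26, 11.08 and 11.23 in shControl cells. In low glucose it was 10.78, 10.95 and 10.85 in shCDK8 cells, against 11.14, 11.09 and 11.07 in shControl cells. The groups did not overlap in either. CCNC fell in both, with log2 changes of -0.34 ± 0.097, adjusted p = 0.0367 in normal growth and -0.24 ± 0.058, adjusted p = 0.0141 in low glucose. The call in normal growth was lost without shCDK8 replicate 3 or shControl replicate 1 or 3, with an adjusted p of at most 0.123, with all transcript clusters (adjusted p = 0.0636) and without moderation of the variance (adjusted p = 0.0688). The call in low glucose was lost without shCDK8 replicate 1 or shControl replicate 1, with an adjusted p of at most 0.0561, and with all 35 arrays in one fit (adjusted p = 0.0727). Without the shCDK8 array that stood apart, the change in normal growth was -0.24, adjusted p = 0.0371.

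Under hypoxia CCNC was 10.85 and 10.60 in shCDK8 cells, against 10.85 and 11.14 in shControl cells, a difference of -0.27 ± 0.15, adjusted p = 0.316. Under 5FU the arrays of both lines overlapped, with 11.20 and 11.28 in shCDK8 cells, against 11.18 and 11.29 in shControl cells (difference 0.0048, 95% interval -0.22 to 0.23). In shCDK19 cells CCNC passed in none of the 4 experiments, with differences of 0.0037 in normal growth, -0.039 under 5FU, -0.019 in low glucose and 0.11 under hypoxia. CCNC was also the flattest of the 7 rows: its group means spanned 0.52 over the 14 groups, and in the order of levels each of the 13 pairs of neighbouring groups had overlapping replicates. The groups shCDK8 hypoxia, shCDK8 normal growth and shCDK8 low glucose took the 3 lowest places in that order, while shCDK8 5FU took the highest (11.24).

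MED12, the subunit that turns the kinase on, was higher in shCDK8 cells both in normal growth and in low glucose. Its normal growth values were 10.41, 10.63 and 10.53 in shCDK8 cells and 10.22, 10.26 and 10.19 in shCDK19 cells, against 10.03, 10.08 and 10.10 in shControl cells. In low glucose it was 10.80, 10.70 and 10.72 in shCDK8 cells and 10.44, 10.51 and 10.30 in shCDK19 cells, against 10.47, 10.45 and 10.43 in shControl cells. In both, every shCDK8 array lay above every shControl array. MED12 rose in shCDK8 cells by 0.46 ± 0.056 in normal growth (adjusted p = 0.000919), or 1.37-fold, and by 0.29 ± 0.054 in low glucose (adjusted p = 0.00336), or 1.22-fold, and both calls held without any 1 array. Without the shCDK8 array that stood apart the change in normal growth was 0.51, adjusted p = 0.000239. In shCDK19 cells MED12 lay above all shControl arrays in normal growth without passing the test (0.16 ± 0.056, adjusted p = 0.174). It differed by -0.032 in low glucose (95% interval -0.15 to 0.088).

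The 5FU experiment differed for this gene as a whole. Its 8 arrays, DMSO included, measured 9.15 to 9.45 (median 9.33), against 10.03 to 10.80 on the 27 arrays of the other experiments, with no overlap. Within it MED12 was 9.15 and 9.33 in shCDK8 cells, against 9.33 and 9.22 in shControl cells, a difference of -0.034 (95% interval -0.25 to 0.18). The effect of the shCDK8 line on MED12 was lower under 5FU than in normal growth (-0.49 ± 0.10, adjusted p = 0.0019), and this held without any 1 array. The part that the low level of the whole 5FU experiment has in this difference was not tested. Under hypoxia MED12 was 10.54 and 10.43 in shCDK8 cells, against 10.12 and 10.37 in shControl cells, and the difference of 0.24 ± 0.11 did not pass (adjusted p = 0.258), although it did without replicate 2 of shControl cells (0.36, adjusted p = 0.0355). Without replicate 1 it was 0.12, adjusted p = 0.451.

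MED12L, the paralog of MED12, did not pass the test against shControl in either knockdown line in any of the 4 conditions. In hypoxic shCDK8 cells it passed without replicate 2 of shControl cells (0.36, adjusted p = 0.0241), and it was -0.11, adjusted p = 0.381 without replicate 1. In normal growth it was 7.67, 7.91 and 7.98 in shCDK8 cells and 7.68, 7.77 and 7.48 in shCDK19 cells, against 7.89, 7.77 and 7.77 in shControl cells. The shCDK8 arrays overlapped those of shControl, and the highest shCDK19 array equalled the lowest shControl arrays at this rounding. In low glucose it was 7.38, 7.41 and 7.09 in shCDK8 cells and 6.996, 6.93 and 6.93 in shCDK19 cells, against 7.14, 7.06 and 7.15 in shControl cells. There the shCDK19 arrays lay below and 2 of the 3 shCDK8 arrays above all shControl arrays. The differences from shControl were 0.17 ± 0.078, adjusted p = 0.156 for shCDK8 cells and -0.16 ± 0.078, adjusted p = 0.185 for shCDK19 cells. Without replicate 3 of the shCDK8 cells their difference passed (0.27, adjusted p = 0.00752). The lines differed directly in low glucose, where MED12L was higher in shCDK8 than in shCDK19 cells by 0.34 ± 0.078 (adjusted p = 0.00958).

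MED13L and MED13, which join the module to core Mediator, were lower in shCDK19 cells both in normal growth and in low glucose. In normal growth MED13L was 11.60, 11.68 and 11.59 in shCDK19 cells, against 12.18, 12.14 and 12.13 in shControl cells. In low glucose it was 11.27, 11.34 and 11.25 in shCDK19 cells, against 11.75, 11.71 and 11.69 in shControl cells. No arrays of the 2 lines overlapped. MED13L fell in both, with log2 changes of -0.52 ± 0.040, adjusted p = 0.000356 in normal growth (1.44-fold lower) and -0.43 ± 0.037, adjusted p = 3.44e-05 in low glucose (1.35-fold lower), and both calls held without any 1 array. Under 5FU the lines overlapped, with 11.94 and 11.97 in shCDK19 cells, against 11.96 and 11.99 in shControl cells (-0.018, 95% interval -0.14 to 0.11). The effect of the shCDK19 line under 5FU was higher than in normal growth by 0.51 ± 0.070 (adjusted p = 4.76e-05), and this difference held without any 1 array. Under hypoxia MED13L was 11.84 and 11.87 in shCDK19 cells, against 12.01 and 12.23 in shControl cells, a difference of -0.27 ± 0.10, adjusted p = 0.38, of -0.38, adjusted p = 0.119 without shControl replicate 1 and of -0.15, adjusted p = 0.143 without shControl replicate 2.

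MED13 followed the same direction in shCDK19 cells with smaller differences. It was 11.57, 11.66 and 11.54 in shCDK19 cells in normal growth, against 11.87, 11.77 and 11.77 in shControl cells, and 11.40, 11.47 and 11.38 in shCDK19 cells in low glucose, against 11.72, 11.69 and 11.76 in shControl cells. No arrays overlapped in either experiment. MED13 fell in low glucose (-0.31 ± 0.047, adjusted p = 0.00134), a call that held without any 1 array. In normal growth it also fell (-0.21 ± 0.047, adjusted p = 0.0357), and this call was lost without shCDK19 replicate 1 or 3 or any of the 3 shControl replicates, with an adjusted p of at most 0.132, with array medians subtracted (adjusted p = 0.196) and with dim rows left out (adjusted p = 0.0806). Under 5FU MED13 was 11.68 and 11.71 in shCDK19 cells, against 11.87 and 11.86 in shControl cells, a difference of -0.17 ± 0.072, adjusted p = 0.401. Under hypoxia it was 11.68 and 11.76 in shCDK19 cells, against 11.75 and 11.83 in shControl cells, which overlap (-0.070, 95% interval -0.28 to 0.14).

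In the shCDK8 line MED13L was higher in normal growth and MED13 lower in low glucose. MED13L was 12.30, 12.37 and 12.32 in shCDK8 cells in normal growth, against 12.18, 12.14 and 12.13 in shControl cells, and rose by 0.18 ± 0.040 (adjusted p = 0.0133). Without the shCDK8 array that stood apart it was 0.20, adjusted p = 0.0108, and the call was lost without shControl replicate 2 or 3, with an adjusted p of at most 0.0549, and with array medians subtracted (adjusted p = 0.179). MED13 was 11.91, 11.92 and 11.88 in shCDK8 cells there, against 11.87, 11.77 and 11.77 in shControl cells, and its difference did not pass (0.10 ± 0.047, adjusted p = 0.171). In low glucose MED13 gave 11.54, 11.64 and 11.52 in shCDK8 cells, against 11.72, 11.69 and 11.76 in shControl cells. It fell (-0.16 ± 0.047, adjusted p = 0.0372), and the call was lost without shCDK8 replicate 1 or 3 or any shControl replicate, with an adjusted p of at most 0.123, with array medians subtracted (adjusted p = 0.178) and with dim rows left out (adjusted p = 0.068). MED13L in low glucose was 11.70, 11.70 and 11.71 in shCDK8 cells, against 11.75, 11.71 and 11.69 in shControl cells (-0.015, 95% interval -0.097 to 0.067). Under 5FU MED13 was 11.72 and 11.58 in shCDK8 cells, against 11.87 and 11.86 in shControl cells (-0.21 ± 0.072, adjusted p = 0.211), and MED13L was 11.93 and 11.87 in shCDK8 cells, against 11.96 and 11.99 in shControl cells (-0.075 ± 0.050, adjusted p = 0.572). Under hypoxia both shCDK8 arrays lay above both shControl arrays for MED13 (11.99 and 12.01 in shCDK8 cells, against 11.75 and 11.83 in shControl cells) and for MED13L (12.42 and 12.41 in shCDK8 cells, against 12.01 and 12.23 in shControl cells). The differences of 0.21 ± 0.080, adjusted p = 0.191 for MED13 and 0.30 ± 0.10, adjusted p = 0.162 for MED13L did not pass. That of MED13L passed without replicate 2 of shControl cells (0.41, adjusted p = 0.0182) and was 0.18, adjusted p = 0.172 without replicate 1.

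The differences of the shCDK8 effect between experiments passed the test for the MED13 pair. Relative to normal growth 3 of 7 rows passed under 5FU, all lower, where 11.9% of all rows passed (6.25% higher, 5.62% lower), and 2 in low glucose, both lower, where 12.8% of all rows passed (7.78% higher, 5.06% lower). For the shCDK19 effect 1 row passed under 5FU, MED13L, where 4% of all rows passed (2.18% higher, 1.81% lower), and 0 passed in low glucose in limma, where 1.79% of all rows passed (0.989% higher, 0.799% lower) and 0 of the 7 had an unadjusted p under 0.05. Relative to normal growth, the effect on MED13 was lower under 5FU (-0.32 ± 0.077, adjusted p = 0.00609) and in low glucose (-0.26 ± 0.068, adjusted p = 0.0114). The effect on MED13L was lower under 5FU (-0.26 ± 0.070, adjusted p = 0.0138) and in low glucose (-0.20 ± 0.062, adjusted p = 0.0359). All 4 calls were lost when the median of each array was subtracted, with changes of -0.29, adjusted p = 0.129 and -0.23, adjusted p = 0.182 for MED13, and of -0.23, adjusted p = 0.264 and -0.17, adjusted p = 0.385 for MED13L. The call for MED13 under 5FU was also lost without shCDK8 5FU replicate 2 (-0.25, adjusted p = 0.071). That for MED13L under 5FU was lost without shCDK8 5FU replicate 2 or shControl 5FU replicate 2, with an adjusted p of at most 0.0819. That for MED13L in low glucose was lost without any of 8 of its 12 arrays, with an adjusted p of at most 0.0907: all 3 shCDK8 arrays and shControl replicates 1 and 2 in low glucose, and shCDK8 replicate 2 and shControl replicates 2 and 3 in normal growth. It was lost with dim rows left out as well (adjusted p = 0.0865). Without the shCDK8 normal growth array that stood apart these 4 calls kept their side of the threshold.

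**Figure D3:**
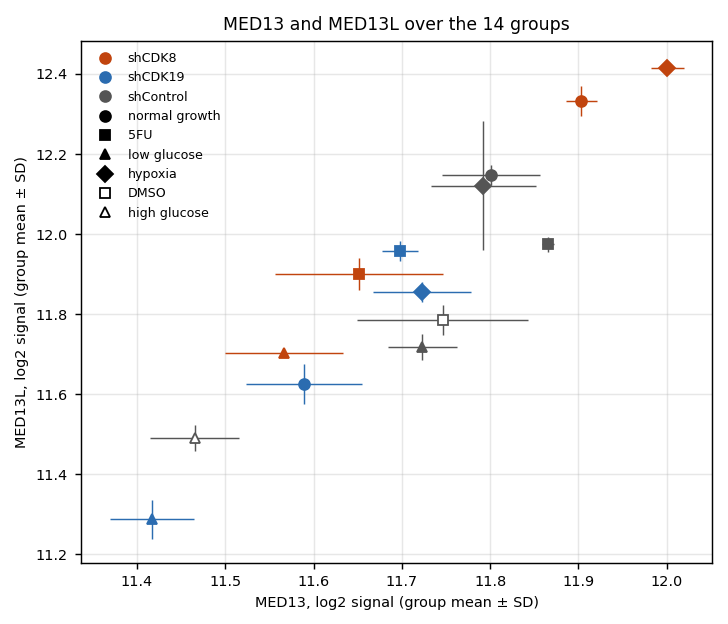
Group means of MED13 (horizontal axis) and MED13L (vertical axis), both log2 signal, over the 14 groups, with bars of 1 SD (n = 2 or 3 arrays). Colours give the line and shapes the condition; shCDK8 cells under hypoxia lie highest on both axes and shCDK19 cells in low glucose lowest.

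MED13 and MED13L also ranked the groups alike. Over the 14 group means their Pearson r was 0.932, the highest for either gene among 14259 candidate genes, where the 99th percentile was 0.657 for MED13 and 0.706 for MED13L. Both were highest in shCDK8 cells under hypoxia, at 12.00 for MED13 and 12.42 for MED13L, and lowest in shCDK19 cells in low glucose, at 11.42 and 11.29. The 14 means share lines, experiments and arrays, so the correlation is a description. It was 0.869 with the mean of each experiment subtracted, a measure added after seeing the data, and MED13L then ranked 17th for MED13, and MED13 34th for MED13L. Between neighbours in the order of levels the replicates overlapped in 10 of 13 pairs for MED13 and in 4 of 13 for MED13L.

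Counted together, 4 of the 7 rows passed in shCDK8 against shControl cells in normal growth (2 higher, 2 lower), where 24.9% of all rows passed (11.4% higher, 13.5% lower). In low glucose 4 passed (1 higher, 3 lower), where 22.3% of all rows passed (12.1% higher, 10.2% lower). Under 5FU CDK8 alone passed, where 3.51% of all rows passed (1.59% higher, 1.92% lower), and under hypoxia CDK8 alone again, where 7.3% of all rows passed (4.81% higher, 2.49% lower). For shCDK19 against shControl cells 3 passed in normal growth, all lower, where 7.07% of all rows passed (3.67% higher, 3.4% lower). In low glucose 3 passed, all lower, where 19.9% of all rows passed (9.11% higher, 10.8% lower). Under 5FU CDK19 alone passed, where 0.837% of all rows passed (0.576% higher, 0.261% lower). Under hypoxia 0 passed in limma, where 0.228% of all rows passed (0.196% higher, 0.0326% lower), and 2 of the 7 had an unadjusted p under 0.05, with up to 3 called under an alternative setting. The median change of the 7 rows in normal growth was 0.10 in shCDK8 cells, against -0.023 over all rows, and -0.17 in shCDK19 cells, against -0.0032 over all rows. The hairpin's target is among the rows counted. Both sets of comparisons share their shControl arrays.

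Compared directly, shCDK8 and shCDK19 cells differed in 6 of the 7 rows in normal growth (4 higher in shCDK8 cells, 2 lower), where 26.1% of all rows passed (12.9% higher, 13.2% lower). They differed in all 7 in low glucose (5 higher, 2 lower), where 26% of all rows passed (14.7% higher, 11.2% lower). Both kinases differed in the direction set by the hairpins. CCNC was lower in shCDK8 than in shCDK19 cells (-0.35 ± 0.097, adjusted p = 0.0338 in normal growth and -0.22 ± 0.058, adjusted p = 0.0187 in low glucose). MED12 was higher (0.30 ± 0.056, adjusted p = 0.00662 and 0.32 ± 0.054, adjusted p = 0.0016), as were MED13 (0.31 ± 0.047, adjusted p = 0.00214 and 0.15 ± 0.047, adjusted p = 0.04) and MED13L (0.71 ± 0.040, adjusted p = 2.24e-05 and 0.42 ± 0.037, adjusted p = 2.49e-05), each pair given in the same order of conditions. Under hypoxia 3 passed, where 12.4% of all rows passed (7.26% higher, 5.09% lower): CDK8, CDK19 and MED13L (0.56 ± 0.10, adjusted p = 0.035), and each of these was lost without any 1 of the 4 arrays compared. Under 5FU CDK8 and CDK19 alone passed, where 5.15% of all rows passed (2.22% higher, 2.92% lower). The calls for CCNC were lost without shCDK8 replicate 3 or any shCDK19 replicate in normal growth, with an adjusted p of at most 0.111, and without shCDK8 replicate 1 or 3 or shCDK19 replicate 2 or 3 in low glucose, with an adjusted p of at most 0.0702. That for MED13 in low glucose was lost without replicate 1 or 2 of shCDK8 cells or replicate 1 or 3 of shCDK19 cells, with an adjusted p of at most 0.134. That for CDK19 under 5FU was lost without shCDK19 replicate 2 (1.16, adjusted p = 0.0579). Other settings also ended the calls of CCNC in normal growth (all transcript clusters, adjusted p = 0.0597; no moderation, 0.0639) and in low glucose (all 35 arrays, adjusted p = 0.0927; array medians subtracted, 0.0787). They ended that of MED13 in low glucose (array medians subtracted, adjusted p = 0.116; dim rows left out, 0.0722) and that of MED13L under hypoxia (all transcript clusters, adjusted p = 0.0577; array medians subtracted, 0.0517; no moderation, 0.0909). MED12L passed in normal growth without the shCDK8 array that stood apart (0.30, adjusted p = 0.0336).

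5FU was followed by a lower CDK19 transcript in shControl cells and by no other call among the 7 rows (1 of 7, lower), where 11.5% of all rows passed (7.17% higher, 4.29% lower). CDK19 measured 7.80 and 7.63 in 5FU-treated shControl cells, against 8.47 and 8.60 in DMSO-treated shControl cells. It fell (-0.82 ± 0.088, adjusted p = 0.00726; 1.77-fold lower), and without replicate 2 of the 5FU-treated cells it was -0.74, adjusted p = 0.0507. The paralog did not pass the test: CDK8 was 10.95 and 10.84 after 5FU, against 10.43 and 10.61 after DMSO (0.38 ± 0.15, adjusted p = 0.189). Both 5FU arrays lay above both DMSO arrays for CDK8. MED13L was 11.96 and 11.99 after 5FU, against 11.76 and 11.81 after DMSO (0.19 ± 0.050, adjusted p = 0.0692), and it passed when all 35 arrays (0.19, adjusted p = 0.0132) or all transcript clusters (0.19, adjusted p = 0.0474) entered the fit. For CCNC, MED12, MED12L and MED13 the differences lay between -0.11 and 0.12.

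Low against high glucose changed 5 of the 7 rows in shControl cells (4 higher, 1 lower), where 31.2% of all rows passed (13.9% higher, 17.3% lower). MED12L fell most, with 7.14, 7.06 and 7.15 in low glucose, against 7.68, 7.81 and 7.67 in high glucose, a change of -0.60 ± 0.078, adjusted p = 0.000213 or 1.52-fold lower. CDK19 was 9.84, 9.73 and 9.84 in low glucose, against 9.38, 9.43 and 9.39 in high glucose (0.41 ± 0.087, adjusted p = 0.0051). Neither gene's groups overlapped. MED13 was 11.72, 11.69 and 11.76 in low glucose, against 11.41, 11.48 and 11.51 in high glucose (0.26 ± 0.047, adjusted p = 0.00191). MED13L was 11.75, 11.71 and 11.69 in low glucose, against 11.47, 11.47 and 11.53 in high glucose (0.23 ± 0.037, adjusted p = 0.000913). These 4 calls held without any 1 array. MED12 was 10.47, 10.45 and 10.43 in low glucose, against 10.27, 10.33 and 10.23 in high glucose (0.17 ± 0.054, adjusted p = 0.0329), a call lost without any low glucose replicate or high glucose replicate 1 or 3, with an adjusted p of at most 0.108, with all 35 arrays (adjusted p = 0.0534) and with array medians subtracted (adjusted p = 0.0863). CDK8 differed by 0.070 (95% interval -0.18 to 0.32) and CCNC by 0.075 (95% interval -0.053 to 0.20). A difference between the responses of the paralogs was not tested.

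**Figure D4:**
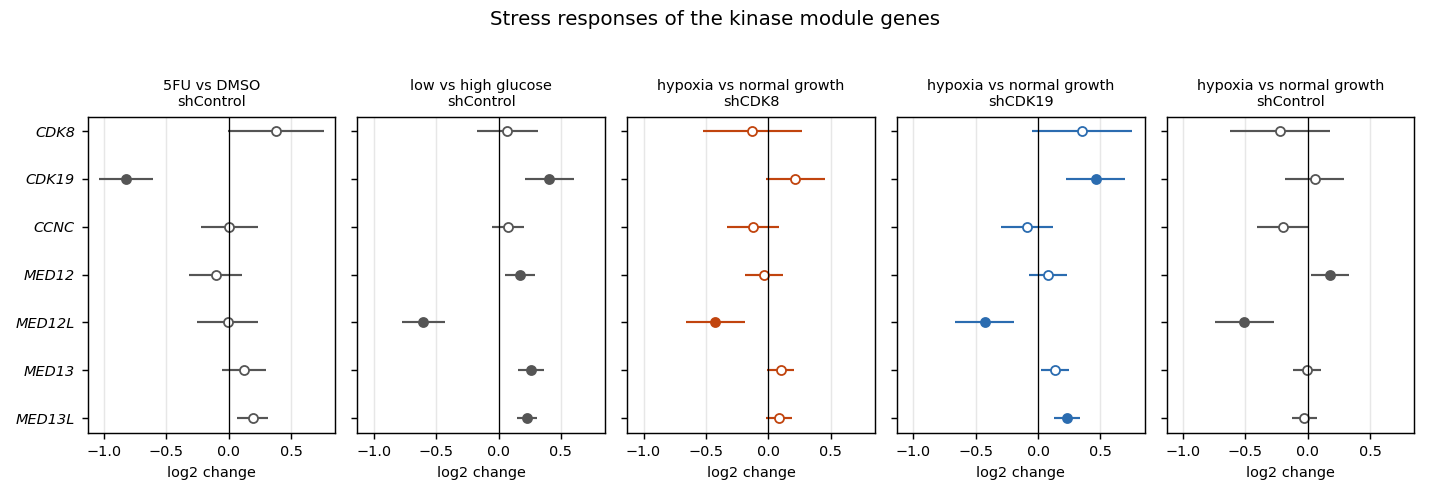
Change in log2 signal (horizontal axis) of the 7 kinase module rows (vertical axis) under stress, one panel per comparison and line. Points are limma estimates with 95% intervals, filled where the adjusted p is under 0.05; CDK19 is at -0.82 under 5FU and 0.41 in low glucose, and MED12L is at -0.60 in low glucose and between -0.51 and -0.43 under hypoxia.

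Hypoxic cells could be set against normal growth in each line, although the arrays come from 2 experiments and hypoxia and experiment cannot be told apart. MED12L, which binds the module's kinase in place of MED12, passed in all 3 lines. It was 7.43 and 7.42 in hypoxic shCDK8 cells, against 7.67, 7.91 and 7.98 in normal growth (-0.43 ± 0.11, adjusted p = 0.0188). In shCDK19 cells it was 7.19 and 7.25 under hypoxia, against 7.68, 7.77 and 7.48 in normal growth (-0.43 ± 0.11, adjusted p = 0.0049). No arrays overlapped in either knockdown line, nor in shControl cells, with 7.07 and 7.54 under hypoxia, against 7.89, 7.77 and 7.77 in normal growth (-0.51 ± 0.11, adjusted p = 0.00095). In shControl cells the call was lost without hypoxic replicate 1 (-0.27, adjusted p = 0.115) and not without replicate 2 (-0.74, adjusted p = 3.18e-05). In shCDK19 cells it was lost without hypoxic replicate 1 (-0.40, adjusted p = 0.0523). In shCDK8 cells it was lost without either hypoxic array or normal growth replicate 2 or 3, with an adjusted p of at most 0.134, in the fit of only the 2 experiments compared (adjusted p = 0.109), with array medians subtracted (adjusted p = 0.0653) and with quantile normalization (adjusted p = 0.054), and it was -0.52, adjusted p = 0.00508 without normal growth replicate 1.

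The other calls under hypoxia differed by line. In shControl cells 2 of 7 rows passed, where 47.8% of all rows passed (21.1% higher, 26.7% lower): MED12L and MED12 (0.18 ± 0.073, adjusted p = 0.0486), and MED12 was lost without hypoxic replicate 2 or any normal growth replicate, with an adjusted p of at most 0.570, and was 0.30, adjusted p = 0.00908 without hypoxic replicate 1. It was lost with all transcript clusters (adjusted p = 0.0565), array medians subtracted (adjusted p = 0.449), the 2 experiments alone (adjusted p = 0.0964) and dim rows left out (adjusted p = 0.0595). In shCDK8 cells MED12L alone passed, where 9.1% of all rows passed (3.52% higher, 5.57% lower). In shCDK19 cells 3 passed, where 31.3% of all rows passed (11.1% higher, 20.2% lower): MED12L, MED13L (0.23 ± 0.049, adjusted p = 0.000616, lost with array medians subtracted, adjusted p = 0.0637) and the depleted CDK19 itself (0.46 ± 0.11, adjusted p = 0.0025), which was lost without hypoxic replicate 2 (0.37, adjusted p = 0.0711). Without hypoxic replicate 2 of shControl cells, CCNC (-0.34, adjusted p = 0.0157) and MED13L (-0.14, adjusted p = 0.014) passed there too, and without normal growth replicate 2 of shCDK19 cells MED13 passed in that line (0.17, adjusted p = 0.0285). CDK8 passed in none of the lines, with -0.13 in shCDK8 cells, 0.35 in shCDK19 cells and -0.22 in shControl cells. Whether these responses differ between lines is the same contrast as the difference of knockdown effects, which no row passed for hypoxia in the shCDK8 line (0 of 7, against 11.5% of all rows, 1 row at an unadjusted p under 0.05) or in the shCDK19 line (0 of 7, against 2.08% of all rows, 3 rows at an unadjusted p under 0.05) in limma. Without replicate 2 of hypoxic shControl cells 1 row passed in the shCDK8 line and 3 in the shCDK19 line. With quantile normalization 1 row passed in the shCDK8 line, and with a replicate block, all transcript clusters or no moderation of the variance 1 row passed in the shCDK19 line.

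Unstressed shControl cells differed between experiments as well. CDK19 averaged 9.10 in normal growth, 8.53 in DMSO and 9.40 in high glucose, a range of 0.86 that is larger than its response to 5FU or to low glucose. MED12 ranged over 0.90 between these groups, MED12L over 0.69 and MED13L over 0.66, each more than any change of that gene under stress in shControl cells. CDK8 and CCNC differed least, by 0.26 and 0.21. Medium, vehicle and experiment cannot be told apart in these groups.

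Over the 14 groups CDK8 spanned 2.88 between its lowest mean, 8.02 in hypoxic shCDK8 cells, and its highest, 10.90 in 5FU-treated shControl cells. CDK19 spanned 3.17, with 6.63 in 5FU-treated shCDK19 cells at the low end and 9.80 in low glucose shControl cells at the high end. In the order of levels, neighbouring groups had overlapping replicates in 10 of 13 pairs for CDK8, 6 for CDK19, 10 for MED12 and 11 for MED12L. MED12 was highest in shCDK8 cells in low glucose (10.74) and lowest in 5FU-treated shCDK8 cells (9.24). MED12L was highest in shCDK8 cells in normal growth (7.85) and lowest in shCDK19 cells in low glucose (6.95).

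The genes whose 14 group means were most like those of each member, by Pearson r and with no test, were as follows. For CDK8 they were NFIB (0.969), SLC38A5 (0.955) and ARAF (0.950), and for CDK19 DMWD (0.919), FGGY (0.917) and WNT16 (0.914). For CCNC they were MRPL11 (0.948), TAF5 (0.942) and CHRAC1 (0.941), and for MED12 RILPL1 (0.993), BCAS3 (0.980) and THBS3 (0.980). The 99th percentile of r with MED12 over the candidates was 0.934. For MED12L they were ITGB1BP2 (0.952), RTKN2 (0.920) and BTN2A3P (0.918). After MED13L, TGM1 (0.844) and RTL8C (0.838) were most like MED13, and after MED13, RTL8C (0.900) and PPME1 (0.888) most like MED13L.

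Core Mediator, to which the module binds, was read from a list of its other subunits. Of 24 measured core subunits of 26 listed, 2 were higher and 6 lower in shCDK8 cells in normal growth (24.9% of all rows passed there), among them the tail subunit MED23 at 0.40 ± 0.069, adjusted p = 0.00459, and MED21 at -0.32 ± 0.066, adjusted p = 0.0103. In low glucose 3 were higher and 1 lower in shCDK8 cells (22.3% of all rows), again MED21 (-0.30 ± 0.056, adjusted p = 0.00334). In shCDK19 cells 0 core subunits passed in normal growth in limma, where 7 had an unadjusted p under 0.05 (7.07% of all rows passed), and 2 were higher and 2 lower in low glucose (19.9% of all rows). Under 5FU 4 rose and 1 fell in shControl cells (11.5% of all rows), with MED10 at 1.05 ± 0.071, adjusted p = 0.00265, and in low against high glucose 6 rose and 2 fell (31.2% of all rows), with MED10 at 0.49 ± 0.13, adjusted p = 0.0161 and MED8 at 0.48 ± 0.078, adjusted p = 0.000939. Under 5FU and under hypoxia 0 core subunits passed in either knockdown line in limma, where 2 and 5 under 5FU and 5 and 3 under hypoxia, for shCDK8 and then shCDK19, had an unadjusted p under 0.05. Of all rows 3.51% and 0.837% passed under 5FU and 7.3% and 0.228% under hypoxia, in the same order of lines. In hypoxic cells against normal growth 0 were higher and 1 lower in shCDK8 cells (9.1% of all rows), 4 higher and 8 lower in shCDK19 cells (31.3%), and 2 higher and 12 lower in shControl cells (47.8%).

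Of the 15 other kinases and cyclins linked to transcription, all measured, 1 was higher in shCDK8 cells in normal growth (24.9% of all rows passed), CCNL1 (cyclin L1) at 0.32 ± 0.091, adjusted p = 0.0381. In low glucose CDK11B was lower in shCDK8 cells (-0.86 ± 0.13, adjusted p = 0.000767) and in shCDK19 cells (-0.76 ± 0.13, adjusted p = 0.00219), and CDK12, a kinase of elongating polymerase, was lower in shCDK19 cells (-0.39 ± 0.057, adjusted p = 0.000934). CDK11B has a near-identical copy, CDK11A, so its value is uncertain. Of all rows 22.3% passed in low glucose in shCDK8 cells and 19.9% in shCDK19 cells. Under 5FU 3 rose and 0 fell in shControl cells (11.5% of all rows), among them CCNL1 (0.65 ± 0.11, adjusted p = 0.0234) and CCNT1, the cyclin of CDK9 (0.53 ± 0.082, adjusted p = 0.0176). In low against high glucose 6 rose and 0 fell in shControl cells (31.2% of all rows). Among them were CDK11B at 0.67 ± 0.13, adjusted p = 0.0022, and CDK7, the kinase of TFIIH, at 0.47 ± 0.054, adjusted p = 8.99e-05. The lower CDK11B of both knockdown lines in low glucose is measured against those same low glucose shControl arrays, so the 3 CDK11B changes are not independent. In limma 0 of the 15 passed in shCDK19 cells in normal growth (2 at an unadjusted p under 0.05), or in either knockdown line under 5FU (2 and 3) or hypoxia (3 and 4, shCDK8 first in each pair). Of all rows 7.07% passed in shCDK19 cells in normal growth, 3.51% and 0.837% under 5FU and 7.3% and 0.228% under hypoxia. In hypoxic cells against normal growth 0 of the 15 passed in shCDK8 cells in limma (0 at an unadjusted p under 0.05; 9.1% of all rows passed), 1 was higher and 4 lower in shCDK19 cells (31.3% of all rows), and 0 were higher and 7 lower in shControl cells (47.8% of all rows, 26.7% lower).

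Of 9 listed regulators and substrates of the kinase module 8 were measured. FBXW7, which encodes the ubiquitin ligase subunit known to target MED13 and MED13L for degradation, rose in shCDK8 cells in normal growth (0.87 ± 0.11, adjusted p = 0.00111), under 5FU (0.60 ± 0.096, adjusted p = 0.0348) and in low glucose (0.33 ± 0.10, adjusted p = 0.0451). SMAD3, a transcription factor of TGF-beta signalling whose linker CDK8 can phosphorylate, rose in normal growth (0.61 ± 0.038, adjusted p = 3.34e-05), under 5FU (0.55 ± 0.067, adjusted p = 0.017, named after its value was seen) and in low glucose (0.69 ± 0.050, adjusted p = 6.27e-06). NOTCH1, a receptor whose cleaved intracellular part is a CDK8 substrate, fell in shCDK8 cells under 5FU (-0.63 ± 0.049, adjusted p = 0.0046). In all, 3 of the 8 were higher in shCDK8 cells in normal growth (24.9% of all rows passed), 2 were higher and 1 lower under 5FU (3.51%), and 2 were higher and 1 lower in low glucose (22.3%). In shControl cells FBXW7 rose after 5FU (0.99 ± 0.096, adjusted p = 0.00583) and E2F1, a cell cycle factor held in check by CDK8, fell (-0.71 ± 0.053, adjusted p = 0.00318). In low against high glucose SMAD3 rose (0.74 ± 0.050, adjusted p = 3.37e-06) and E2F1 fell (-0.53 ± 0.068, adjusted p = 0.0002). In shCDK19 cells 0 of these 8 passed in normal growth, under 5FU or under hypoxia in limma. There 0, 3 and 1 had an unadjusted p under 0.05 in that order, and 7.07%, 0.837% and 0.228% of all rows passed. In low glucose E2F1 rose in shCDK19 cells (0.38 ± 0.068, adjusted p = 0.00351) and SREBF1, a lipid synthesis regulator, fell (-0.27 ± 0.047, adjusted p = 0.00251). Of the 8, 2 rose and 3 fell after 5FU in shControl cells (11.5% of all rows passed), 3 rose and 2 fell in low against high glucose (31.2%), and 1 was higher and 1 lower in low glucose in shCDK19 cells (19.9%). Under hypoxia 0 of the 8 passed in shCDK8 cells in limma, where 3 had an unadjusted p under 0.05 (7.3% of all rows passed). In hypoxic cells against normal growth 0 were higher and 3 lower in shCDK8 cells (9.1% of all rows), 2 higher and 4 lower in shCDK19 cells (31.3%), and 2 higher and 4 lower in shControl cells (47.8%).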

How the data were processed

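Each of 35 HCT116 RNA samples was measured on HuGene 1.0 ST arrays, 1 colour, 2 or 3 arrays a group. The values were deposited by the authors as log2 signals, a scale judged from their range (4.32, a linear value of 20, to 14.29); Partek is named in the submitters' processing notes, without a version. Background correction and normalization: not given in the sources used here. Of 32321 transcript clusters, 19158 have 1 gene symbol in the platform annotation, 1388 several and 11775 none. For each of 18404 genes the row with the highest mean was kept, and with the row shared by CDK8 and ADRA1B this gave 18405 rows.

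limma 3.58.1 (R 4.3.3; lmFit and eBayes, 1 mean a group, two-sided, Benjamini-Hochberg over 18405 rows, threshold 0.05) was fitted within each experiment for the knockdown, direct, 5FU and glucose comparisons, and on all 35 arrays for hypoxia against normal growth and for differences of knockdown effects between experiments. Intervals are 95% intervals of limma. The number of arrays limits the precision. No arrays were identical. Tests were checked on simulated data with known changes in 50 rows of each size. For shCDK8 against shControl cells, changes of 0.5 log2 passed in 32 of 50 rows in normal growth, 13 under 5FU and 0 under hypoxia. Changes of 1 log2 passed in 45, 43 and 21. The simulated data held fewer changed rows than were called in the data. A small change that did not pass under 5FU or hypoxia is therefore not shown to be absent. Members and gene lists were chosen with earlier results of these data known. All members are named throughout; of the other lists, up to 2 genes with the largest change past the threshold; likeness used group means spanning at least 0.5 log2 units. The alternatives were leaving out each array, a replicate block, other sets of arrays in the fit, a filter on dim rows, array medians subtracted, quantile normalization, all transcript clusters and no moderation of the variance.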

Additional observations from a re-analysis of the deposited data

Results flagged for a closer look

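For 6 results the difference between shCDK8 or shCDK19 and shControl cells was itself different between experiments by limma's test of that difference, relative to normal growth. In the shCDK8 line under 5FU these were MED12 (-0.49 ± 0.10, adjusted p = 0.0019), MED13 (-0.32 ± 0.077, adjusted p = 0.00609) and MED13L (-0.26 ± 0.070, adjusted p = 0.0138). In the shCDK8 line in low glucose they were MED13 (-0.26 ± 0.068, adjusted p = 0.0114) and MED13L (-0.20 ± 0.062, adjusted p = 0.0359). In the shCDK19 line under 5FU it was MED13L (0.51 ± 0.070, adjusted p = 4.76e-05). The MED13 and MED13L calls of the shCDK8 line were all lost when array medians were subtracted. That of MED13L in low glucose was kept in 9 of 19 alternative settings. The MED12 call and the MED13L call of the shCDK19 line were each kept in all 17. All 6 rest on the same normal growth shControl arrays, and each sets one experiment against another, so condition and experiment cannot be told apart.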

How the results depend on the processing

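No result reversed, and 95 sign changes fell on values that passed under neither setting. Counts are kinase module rows called of 7, first under the alternative and then as reported, and are listed where they moved by over 1.5 times or between 0 and more. With all 35 arrays in one fit there were 2 against 1 for shCDK8 and shControl under 5FU, 5 against 1 for them under hypoxia, 3 against 0 for shCDK19 and shControl under hypoxia, 5 against 3 for both knockdown lines under hypoxia, and 2 against 1 for 5FU and DMSO. Without moderation of the variance there were 0 against 1 for shCDK19 under 5FU, 0 against 1 for shCDK8 under hypoxia and 1 against 0 for the shCDK19 effect in hypoxia relative to normal growth. Without dim rows there were 1 against 0 for shCDK19 under hypoxia, 1 against 2 for hypoxic shControl cells and normal growth, and 1 against 2 for the shCDK8 effect in low glucose. With quantile normalization there were 1 against 0 for shCDK19 under hypoxia, 0 against 1 for hypoxic shCDK8 cells and normal growth, and 1 against 0 for the shCDK8 effect in hypoxia. With all transcript clusters there were 2 against 1 for 5FU and DMSO, 1 against 2 for hypoxic shControl cells and 1 against 0 for the shCDK19 effect in hypoxia. With only the 2 experiments compared there were 1 against 2 for hypoxic shControl cells and 0 against 1 for hypoxic shCDK8 cells. With array medians subtracted, which shifted values by at most 0.082, there were 1 against 2 for hypoxic shControl cells, 0 against 1 for hypoxic shCDK8 cells, 1 against 3 for the shCDK8 effect under 5FU and 0 against 2 for it in low glucose. The cause of these changes was not tested.

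Deviations of same-numbered arrays from their group means had correlations from -0.62 to 0.41. They lay above 0.1 in 2 of 9, 6 of 12, 2 of 18 and 2 of 6 pairs in normal growth, 5FU, glucose and hypoxia. With 2 arrays a group, both replicate numbers give the same correlation, so the 5FU and hypoxia counts hold each value in duplicate. These correlations do not settle whether same-numbered arrays belong together. The replicate block gave 1 against 2 for hypoxic shControl cells and 1 against 0 for the shCDK19 effect in hypoxia. It also ended the calls of CCNC in shCDK8 against shControl cells (adjusted p = 0.0909) and against shCDK19 cells (adjusted p = 0.0845) and of MED13 in shCDK19 cells (adjusted p = 0.0904) in normal growth, and the direct calls of MED13 in low glucose (adjusted p = 0.0505) and MED13L under hypoxia (adjusted p = 0.0763). The hypoxic shControl call it ended was that of MED12 (adjusted p = 0.0523).

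Leaving out 1 array at a time gave 2 to 4 calls for shCDK8, 2 to 3 for shCDK19 and 5 to 7 for the direct comparison in normal growth; 1, 0 and 1 to 2 under 5FU; 2 to 4, 3 and 5 to 6 in low glucose; 0 to 5, 0 to 2 and 0 under hypoxia. It gave 0 to 1 for 5FU, 4 to 5 for low glucose, and 1 to 3, 0 to 1 and 2 to 4 for hypoxia in shControl, shCDK8 and shCDK19 cells. Differences of effects gave 1 to 4, 1 to 2 and 0 to 1 for shCDK8, and 1, 0 and 0 to 3 for shCDK19, under 5FU, low glucose and hypoxia. Of 53 calls, 29 held without each array. Where an experiment has 2 arrays a group, the lone array left was assumed to vary like the other groups. The correlation of MED13 with MED13L was 0.869 with experiment means subtracted, against 0.932.

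The number of all rows called moved by over 1.5 times in 82 of 310 settings, for example between 2 and 8549 for shCDK8 under hypoxia (1344 as reported), between 0 and 4324 for shCDK19 under hypoxia (42) and between 5 and 1067 for shCDK19 under 5FU (154). Each member has 1 row, so averaging rows gave no alternative value.

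Single calls ended by the other settings stand beside each result in the main text.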

Other observations

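With the mean of each experiment subtracted from its group means, a measure added after seeing the data, the genes most like CDK8 were AFF4 (r = 0.993), PI4KA (0.991) and CYP4F11 (0.982), where the 99th percentile over all candidates was 0.863. AFF4 encodes a scaffold of the super elongation complex. The genes most like CDK19 by the same measure were CDC73 (0.950), a subunit of the PAF1 elongation complex, MKNK1 (0.941) and HECW2 (0.937). The CDK8 and CDK19 means hold the drop made by each hairpin, so genes that are lower in the same line for any reason can rank high. The 14 means share lines and arrays, and a link between these genes was not tested.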
